A study of Mus musculus with 31 samples.

Results

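Wild-type Panc02 cells grown as 3D spheroids were compared with the same cells grown in 2D culture, across all genes and by programs of adhesion, matrix, cytoskeleton, signalling, metabolism and growth. The comparison rests on 6 of the 31 RNA-seq samples of the study, chosen by their labels, with 3 samples labelled 3D WT and 3 labelled 2D WT. Panc02 is an established mouse pancreatic adenocarcinoma cell line. By the study's methods, spheroids were formed in ultra-low attachment wells and embedded in Matrigel, a basement membrane extract of a mouse sarcoma, and cells were kept in complete DMEM. The methods do not give the density and time of the 2D culture, the day of harvest in this experiment or how many spheroids went into a sample. They describe freeing spheroids from Matrigel in a recovery solution, followed by washes, but not whether this preceded RNA extraction here. Matrigel, spheroid form, time in culture and handling at harvest cannot be told apart here. Where the text sets a second genotype beside WT, it is the Panc02 line whose Cxcl5 gene was targeted with CRISPR/Cas9, labelled Cxcl5-/-, with 3 samples from 2D culture and 3 from spheroids. Whether that line is a clone or a pool is not stated. The labels do not say whether the samples of a group came from separate cultures, and the methods speak of biological replicates only for experiments in general, so p-values measure the spread between these samples, which may be technical.

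Cells on plastic attach on their lower side and spread, whereas cells in a spheroid touch neighbours on all sides and meet a soft matrix at the surface. Adhesion uses cadherins and junction proteins between cells and integrins towards matrix, and both are linked to actin, microtubules and intermediate filaments inside the cell. Spheroids also limit the diffusion of oxygen and nutrients, so genes of the hypoxic response, glycolysis and proliferation are commonly read beside those of structure.

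The total count was 51905908 to 72361685 in 2D WT and 46973008 to 66197643 in 3D WT. The 3D WT libraries differed from the 2D WT libraries in composition. A family of satellite-like predicted genes took 6.97 to 16% of counts in 3D WT and 0.000394 to 0.00116% in 2D WT. A measure of stray signal was taken from 2043 genes for olfactory, vomeronasal and taste receptors, which these cells should not express. Their summed level was 116 to 173 CPM, read counts scaled to a common library size, in 3D WT and 14.9 to 18.6 CPM in 2D WT, so a gene of low level could gain counts in 3D without being expressed. The part of this signal in the results was not tested, and the counts below are given again for genes above it where that changes them by over 1.5 times.

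Genes were tested with the quasi-likelihood test of edgeR and called at an adjusted p under 0.05. Of 21367 genes tested, 4752 were higher in 3D WT (22.2%) and 4707 were lower (22.0%), at a median log2 fold change of 0.002. A fold change over 2, or 1 on the log2 scale, was added to the call in 2868 genes that rose and 1009 that fell, so most changes of that size were rises. Of the calls, 4546 and 4570 had 3 samples of a group all above the 3 of the other. The share of rises differed by expression level. Among genes with a mean of 100 CPM or more, 446 were higher (22.8%) and 853 lower (43.6%), whereas below 1 CPM 1366 were higher and 264 lower. From 10 to 100 CPM, 38.8% were lower. Shares of the gene lists below were not matched for level, so falls in a list of abundant genes stand against a higher share. Under scaling by library totals instead of TMM, the median over all genes was -0.21, with 3563 genes higher and 6712 lower, so that 34.7% of calls were rises in place of 50.2%. The direction of a gene group is given under that scaling too where it changes.

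**Figure D1:**
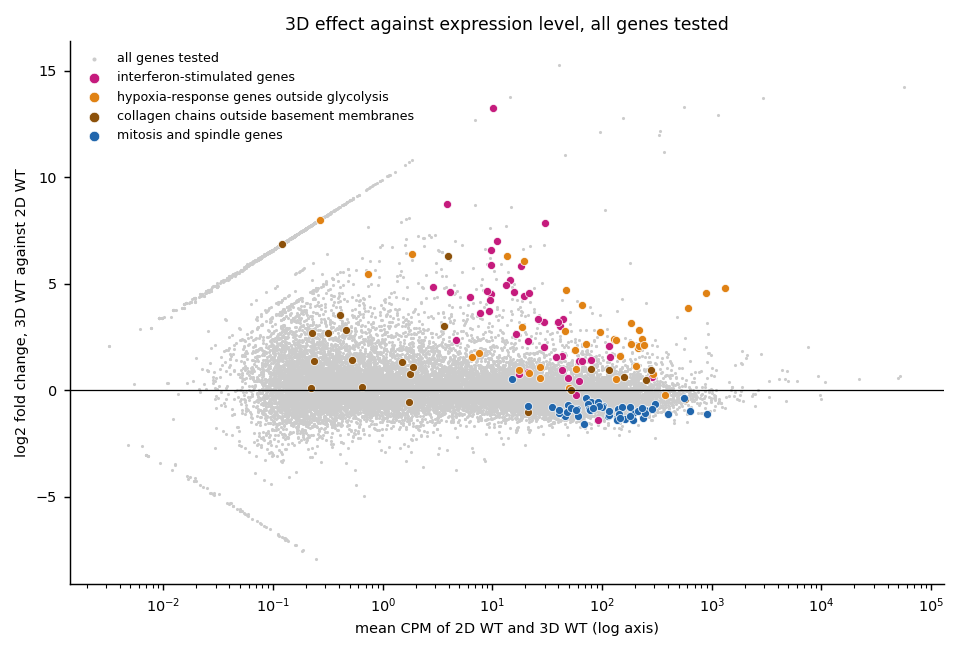
Each point is a gene tested, with its mean CPM over 2D WT and 3D WT on a log axis and its log2 fold change between 3D WT and 2D WT on the vertical axis. Coloured points mark members of 4 gene lists. Interferon-stimulated and hypoxia-response genes lie mostly above 0 and mitosis genes below it, and the straight diagonal rows at low CPM are genes with no counts in all samples of a group, whose fitted change is no measure of size.

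The largest rises among well-counted genes were in genes almost silent in 2D WT. *Nos2*, the inducible nitric oxide synthase (chromosome 11, 78920787 to 78960254, plus strand, GRCm38), was at 0, 0 and 0 CPM in 2D WT and at 29.9, 25.8 and 31.7 CPM in 3D WT, at least 613-fold higher against a floor of 3 counts per library. *Oas2*, which makes the second messenger of an antiviral RNase (chromosome 5, 120730333 to 120749853, minus strand), was at 0, 0 and 0 CPM in 2D WT and at 18.1, 20.8 and 21.6 CPM in 3D WT, at least 424-fold higher. *Car6*, a secreted carbonic anhydrase, had no count in 2D WT and 14.1, 13.7 and 14.1 CPM in 3D WT, at least 294-fold higher. In all of these the 3D WT samples lay close together and the 2D WT samples were at 0.

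The 15 largest rises also held receptors, secreted proteins and a keratin. *Gipr*, the receptor of the incretin GIP, was at 0.116, 0.0719 and 0.0417 CPM in 2D WT and at 31.7, 26.9 and 30.5 CPM in 3D WT (log2 fold change 8.63 with an SE of 0.40, edgeR adjusted p = 2.16e-09). *Adgrd1*, an adhesion G protein-coupled receptor, had at most 3 counts in any 2D WT library and lay at 12.2, 13.7 and 15.9 CPM in 3D WT. *Gpr35*, a G protein-coupled receptor of tryptophan metabolites (log2 fold change 7.01), *Megf6*, a secreted protein with EGF repeats (log2 fold change 7.71), and *Tenm4*, a teneurin that takes part in cell contact (log2 fold change 6.82), also rose, with no overlap between the groups. *Krt19*, a keratin of ductal epithelium (chromosome 11, 100140810 to 100148665, minus strand), was at 0.27, 0.302 and 0.598 CPM in 2D WT and at 50.3, 36.5 and 44.4 CPM in 3D WT (log2 fold change 6.77 with an SE of 0.58, edgeR adjusted p = 2.14e-06). *Dcn* encodes decorin, a small proteoglycan that binds collagen fibres, and was at 0.366, 0.46 and 0.292 CPM in 2D WT and at 35.5, 38.5 and 39.1 CPM in 3D WT (log2 fold change 6.65 with an SE of 0.34, edgeR adjusted p = 2.85e-08). *Ighm*, which encodes an immunoglobulin heavy chain, rose from 0.0941 ± 0.0855 to 19.1 ± 3.07 CPM (SD, n = 3, log2 fold change 7.65 with an SE of 0.34, edgeR adjusted p = 1.30e-09). The other members of this set were interferon-stimulated.

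The 15 largest falls were smaller, with log2 fold changes of -3.74 (*Lgr6*) to -1.96 (*Pparg*, the regulator of fat cell genes). Enzymes that detoxify aldehydes and foreign compounds stood among them. *Aldh3a1*, an aldehyde dehydrogenase (chromosome 11, 61207537 to 61218421, plus strand), was at 520.2, 473 and 519 CPM in 2D WT and at 96.5, 122 and 98.6 CPM in 3D WT (log2 fold change -2.25 with an SE of 0.11, edgeR adjusted p = 5.05e-09). *Gsta1*, a glutathione transferase, fell from 15.5 ± 1.78 to 1.55 ± 0.536 CPM (SD, n = 3, log2 fold change -3.34 with an SE of 0.27, edgeR adjusted p = 3.85e-07), although close relatives of it could share reads. *Cbr3*, a carbonyl reductase, and *Abcc3*, an export pump of conjugates, had log2 fold changes of -2.05 and -2.08. No sample of a group overlapped the other in any of these genes.

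Secreted proteins and regulators of epithelial shape were also among the largest falls. *Slpi*, an inhibitor of leukocyte proteases, fell from 33.9 ± 3.62 to 5.75 ± 1.07 CPM (SD, n = 3, log2 fold change -2.56 with an SE of 0.17, edgeR adjusted p = 6.72e-08). *Ccl2*, the chemokine that draws monocytes (chromosome 11, 82035571 to 82037453, plus strand), was at 238, 225 and 225 CPM in 2D WT and at 54.6, 45.2 and 62.3 CPM in 3D WT (log2 fold change -2.09 with an SE of 0.22, edgeR adjusted p = 3.46e-06), and its neighbour *Ccl7* had the same log2 fold change of -2.09. *Ntn1*, the guidance protein netrin 1, fell from 46.5 ± 5.37 to 11.3 ± 0.387 CPM (log2 fold change -2.04 with an SE of 0.11, edgeR adjusted p = 7.44e-09). *Tinagl1*, a matrix protein that binds laminin and integrins, was at 126, 103 and 119 CPM in 2D WT and at 32.5, 26.4 and 29.7 CPM in 3D WT (log2 fold change -1.98 with an SE of 0.10, edgeR adjusted p = 2.95e-09). *Plin4*, a lipid droplet coat protein, and *Ccdc88c*, a regulator of Wnt signalling, had log2 fold changes of -2.24 and -2.7, and *Shroom2* and *Nwd1* of -2.71 and -2.81. The expected stray signal made up 22.1% of the 3D WT level of *Shroom2*, 28.5% of that of *Nwd1* and 24.4% of that of *Lgr6*.

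**Figure D2:**
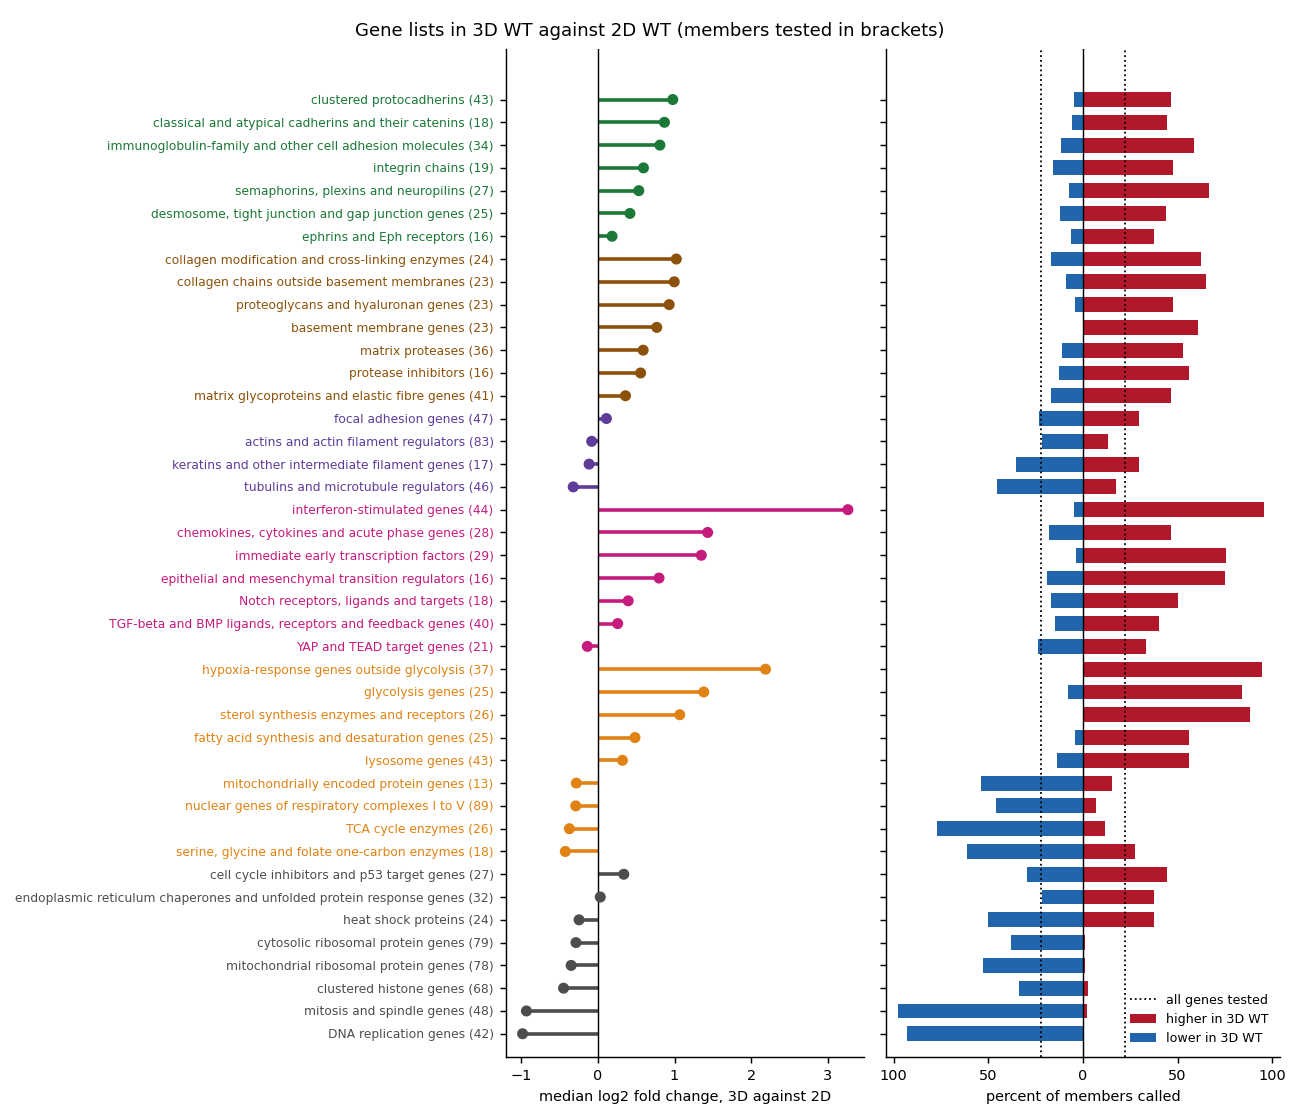
Left, the median log2 fold change of each of 42 gene lists in 3D WT against 2D WT, with the number of members tested in brackets and a vertical line at 0, close to the median of all genes (0.002). Right, the percent of members tested that were called higher or lower, with the percent over all genes tested, 22.2% and 22.0%, as dotted lines. Adhesion and matrix lists lean to rises, cytoskeleton lists do not, and DNA replication and mitosis lists lean to falls.

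Interferon-stimulated genes, which encode antiviral sensors, enzymes and membrane proteins, rose almost without exception in 3D WT. All 44 passed the filter, and of these 42 rose and 2 fell, against 22.2% and 22.0% of all genes. The median log2 fold change was 3.26, against 0.002 over all genes, and 41 to 42 members rose when any 1 of the samples was left out. *Ifi44*, which is induced by interferon and slows proliferation, was at 0.424, 0.316 and 0.0695 CPM in 2D WT and at 48.6, 59.4 and 71 CPM in 3D WT (log2 fold change 7.85 with an SE of 0.38, edgeR adjusted p = 3.39e-09). *Ifi27l2a*, a small mitochondrial protein induced by interferon, was at 0.578, 0.662 and 0.542 CPM in 2D WT and at 210.1, 187 and 244 CPM in 3D WT (log2 fold change 8.48 with an SE of 0.34, edgeR adjusted p = 5.99e-10), although relatives of it could share reads. *Oas3* and *Ddx60*, a synthetase of oligoadenylates and a helicase of RNA sensing, had log2 fold changes of 7.0 and 6.64. *Mx1*, an antiviral GTPase, had at most 3 counts in any 2D WT library and reached 7.41, 6.82 and 8.98 CPM in 3D WT.

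Some members rose less. *Ifitm3* and *Ifitm2*, which block virus entry, had log2 fold changes of 1.58 and 0.61. Against the rest of the list, *Ifit2*, which binds viral RNA, was at 126, 129 and 141 CPM in 2D WT and at 47.6, 57.6 and 46.1 CPM in 3D WT (log2 fold change -1.39 with an SE of 0.10, edgeR adjusted p = 1.75e-07), so its 3D WT samples all lay below the 2D WT samples. The other fall, in *Samhd1*, was small (log2 fold change -0.20 with an SE of 0.071, edgeR adjusted p = 0.0366) and missed the threshold in 12 of 16 alternative analyses.

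Promoter windows of RefSeq, 250 bases before to 50 after a start in GRCm38.p6, were searched on both strands for the interferon-stimulated response element as GAAANNGAAA, where N is any base. Of the list, 17 of 32 list genes with a window (53.1%) held it, against 1079 of all 27025 genes with a window (3.99%). This motif was chosen after the values were seen, and a match is a description of letters, not a site in use. The windows of *Oas3* and *Isg15*, which encodes a ubiquitin-like modifier (log2 fold change 3.64, chosen after its values were seen), are shown because they hold the motif and rose most among named members with a match. The 250 bases before the start are given 5′ to 3′ on the gene's strand, with matches in capitals.
Oas3 promoter, GRCm38.p6, chr5:120777660-120777909, minus strand: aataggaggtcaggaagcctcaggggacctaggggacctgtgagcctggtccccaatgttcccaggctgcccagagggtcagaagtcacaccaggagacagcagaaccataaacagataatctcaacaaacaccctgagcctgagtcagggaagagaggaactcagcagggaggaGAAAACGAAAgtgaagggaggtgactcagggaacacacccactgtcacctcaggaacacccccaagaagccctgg
Isg15 promoter, GRCm38.p6, chr4:156200819-156201068, minus strand: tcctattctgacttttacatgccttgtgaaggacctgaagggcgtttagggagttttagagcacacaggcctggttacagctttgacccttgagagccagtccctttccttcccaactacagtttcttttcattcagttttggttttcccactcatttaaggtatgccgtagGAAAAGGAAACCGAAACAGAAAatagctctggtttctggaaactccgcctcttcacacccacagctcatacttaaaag
The nearest match ended 65 bases before the start in *Oas3* and 56 bases before it in *Isg15*, where 3 matches overlapped.

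Cell adhesion genes rose more often than they fell in 3D WT, and the rises were spread over junction proteins, integrins and surface proteins. Of cadherins and catenins, 8 rose and 1 fell of 18 tested, at a median log2 fold change of 0.87 against 0.002 over all genes. That count rests on members of low level: among the 8 members above the stray signal, 2 rose and 1 fell, with a median of -0.026. *Cdh13*, a cadherin anchored in the membrane by lipid (chromosome 8, 118283733 to 119324921, plus strand), was at 85.6, 82.4 and 92.3 CPM in 2D WT and at 255, 209.7 and 226 CPM in 3D WT (log2 fold change 1.41 with an SE of 0.10, edgeR adjusted p = 1.15e-07). *Cdh2*, which encodes N-cadherin, rose from 1.53 ± 0.0425 to 3.12 ± 0.209 CPM (SD, n = 3, log2 fold change 1.03 with an SE of 0.19, edgeR adjusted p = 6.72e-04). *Ctnnb1*, which encodes β-catenin, was at 726, 692 and 735 CPM in 2D WT and at 659, 603 and 675 CPM in 3D WT (log2 fold change -0.15 with an SE of 0.071, edgeR adjusted p = 0.0997), and its samples did not overlap although the test did not reach the threshold. E-cadherin, encoded by *Cdh1*, had no counts in 2D WT and 5, 0 and 0 counts in 3D WT.

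Junction genes moved in both directions. Of 45 listed, 25 passed the filter on low counts, and of these 11 rose and 3 fell, at a median log2 fold change of 0.42, which came to 0.24 among the 17 above the stray signal and to 0.26 without 3D WT replicate 1. By library totals, 8 rose and 7 fell. *Cldn1*, a claudin that seals tight junctions (chromosome 16, 26356642 to 26371841, minus strand), was at 3.68, 3.05 and 2.88 CPM in 2D WT and at 18.3, 15 and 16.8 CPM in 3D WT (log2 fold change 2.38 with an SE of 0.30, edgeR adjusted p = 1.98e-05). *F11r*, the junctional adhesion molecule JAM-A, rose from 13.9 ± 1.3 to 38.1 ± 3.09 CPM (SD, n = 3), and *Pkp2*, a plaque protein of desmosomes, from 14 ± 0.38 to 37.7 ± 3.12 CPM. Their log2 fold changes were 1.45 and 1.43. *Cgnl1*, which links tight junctions to actin and microtubules, was at 152, 129 and 144 CPM in 2D WT and at 74.5, 72.5 and 59.1 CPM in 3D WT (log2 fold change -1.04 with an SE of 0.10, edgeR adjusted p = 1.47e-06). *Pkp4*, a relative of plakophilins at adherens junctions, had a log2 fold change of -0.98. *Tjp1*, the scaffold ZO-1 and the member with the most counts, rose by only 0.24 on the log2 scale, which missed the threshold in 4 alternative analyses, including library totals.

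Among integrins, the receptors for matrix, 9 rose and 3 fell of 19 chains tested, at a median log2 fold change of 0.59. *Itga7*, the α7 chain that pairs with β1 to bind laminin (chromosome 10, 128933818 to 128958282, plus strand), was at 12.9, 9.41 and 11.4 CPM in 2D WT and at 67.8, 51.4 and 58.3 CPM in 3D WT (log2 fold change 2.4 with an SE of 0.13, edgeR adjusted p = 8.12e-09). *Itgav*, the αv chain that binds fibronectin and vitronectin, rose from 289 ± 42.7 to 476 ± 51.7 CPM (SD, n = 3, log2 fold change 0.72 with an SE of 0.12, edgeR adjusted p = 2.00e-04). *Itgb1*, the common β1 chain and the one with the most counts, was at 657, 666 and 726 CPM in 2D WT and at 744, 768 and 762 CPM in 3D WT (log2 fold change 0.15 with an SE of 0.074, edgeR adjusted p = 0.118). Rises of low chains included *Itga1*, a collagen-binding chain (log2 fold change 2.52), and *Itga2b*, the platelet αIIb chain (log2 fold change 3.47). *Itgb7*, a β chain known from leukocytes, fell from 68.8 ± 9.74 to 23.2 ± 1.41 CPM (log2 fold change -1.57 with an SE of 0.13, edgeR adjusted p = 4.26e-07), and *Itgb2*, another leukocyte chain, was near 1 CPM or below in 3D WT (log2 fold change -2.26).

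Of immunoglobulin-family and other adhesion molecules, 20 rose and 4 fell of 34 tested, at a median log2 fold change of 0.81, and of the 19 above the stray signal 12 rose and 2 fell. *Bcam*, a laminin receptor of the Lutheran blood group (chromosome 7, 19756131 to 19771016, minus strand), was at 6.24, 5.96 and 5.65 CPM in 2D WT and at 53.2, 35.4 and 47 CPM in 3D WT (log2 fold change 2.93 with an SE of 0.45, edgeR adjusted p = 1.17e-04). *Igsf3*, a membrane protein of the immunoglobulin family, rose from 1.04 ± 0.233 to 11.8 ± 1.36 CPM (SD, n = 3) and *Sdc3*, a syndecan with heparan sulfate chains, from 1.14 ± 0.131 to 10.2 ± 2.09 CPM. *Sdc4*, the syndecan of focal adhesions, rose less (log2 fold change 0.57). *Adgrf5*, an adhesion G protein-coupled receptor, was at 4.45, 4.1 and 4.42 CPM in 2D WT and at 0.368, 0.374 and 0.332 CPM in 3D WT (log2 fold change -3.59 with an SE of 0.16, edgeR adjusted p = 1.30e-09), and the expected stray signal made up 57.7% of its 3D WT level. *Mcam*, an adhesion molecule of endothelial and tumor cells, fell by 0.88 on the log2 scale.

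Clustered protocadherins, whose isoforms give neurons their surface identity, were low in both cultures, with a summed level of 84.5 to 96.5 CPM in 2D WT and 159 to 170.5 CPM in 3D WT. Of 43 tested, 20 rose and 2 fell, and of the 14 above the stray signal 13 rose and 1 fell. *Pcdhb20* rose from 0.776 ± 0.244 to 7.41 ± 0.46 CPM and *Pcdhb16* from 6.48 ± 0.544 to 24.1 ± 2.28 CPM (SD, n = 3). *Pcdhgc3*, which had the most counts of them, fell (log2 fold change -0.57), and members of the γ cluster share exons between which reads could be split. Of semaphorins, plexins and neuropilins, guidance proteins and their receptors, 18 rose and 2 fell of 27, or 11 and 3 by library totals. *Sema5a* was at 6.74, 5.93 and 4.73 CPM in 2D WT and at 27.3, 29.9 and 31.1 CPM in 3D WT (log2 fold change 2.35 with an SE of 0.20, edgeR adjusted p = 4.65e-07), and *Sema3d*, a secreted semaphorin, had a log2 fold change of 1.37. Of ephrins and Eph receptors, 6 rose and 1 fell of 16, among them *Efna1*, an ephrin ligand (log2 fold change 2.39), and *Epha4*, a receptor (log2 fold change 1.87), whereas *Ephb2*, a receptor, fell (log2 fold change -0.71). The median of this last list, 0.18, turned to -0.033 by library totals.

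**Figure D3:**
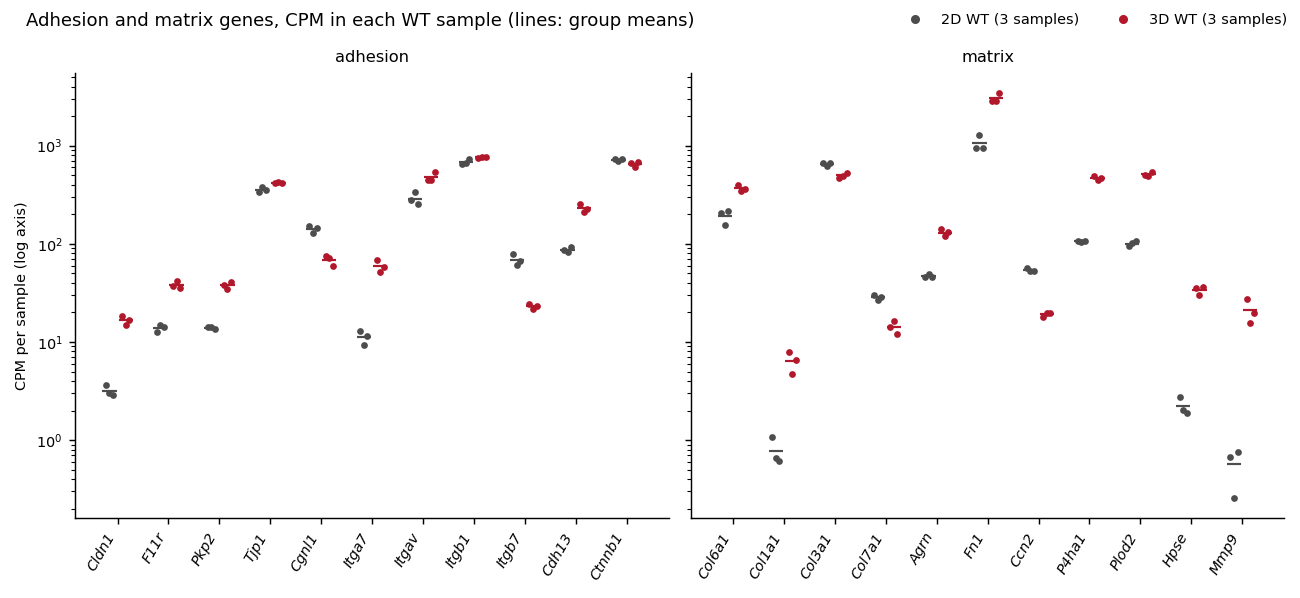
CPM on a log axis in each of the 3 samples of 2D WT (grey) and 3D WT (red) for 11 adhesion genes and 11 matrix genes, with group means as lines. The groups are apart in most of the genes, with *Cgnl1*, *Itgb7*, *Col3a1*, *Col7a1* and *Ccn2* lower in 3D WT, and *Plod2* at 493 to 542 CPM in 3D WT against 94.2 to 107 CPM in 2D WT.

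In each of the 7 lists of extracellular matrix genes, more members rose than fell in 3D WT, and the rises included collagen chains, a laminin chain, fibronectin and the enzymes that modify collagen. Of fibrillar and other collagen chains outside basement membranes, 15 rose and 2 fell of 23 tested, at a median log2 fold change of 1.0. When any 1 of the samples was left out, 11 to 13 rose, and of the 11 above the stray signal 8 rose and 2 fell. *Col6a1*, a chain of beaded filament collagen VI (chromosome 10, 76708792 to 76726168, minus strand), was at 204, 156 and 214 CPM in 2D WT and at 401, 342 and 359.6 CPM in 3D WT (log2 fold change 0.94 with an SE of 0.13, edgeR adjusted p = 5.02e-05). *Col6a3*, a partner chain, rose from 0.106 ± 0.117 to 7.83 ± 1.89 CPM and *Col1a1*, a chain of fibrillar collagen I, from 0.784 ± 0.256 to 6.39 ± 1.55 CPM (SD, n = 3), from levels near or under 1 CPM. *Col3a1*, the chain of fibrillar collagen III and the one with the most counts, was at 660.3, 624 and 659 CPM in 2D WT and at 467, 496 and 527 CPM in 3D WT (log2 fold change -0.38 with an SE of 0.081, edgeR adjusted p = 0.00149), so all its 3D WT samples lay below those of 2D WT. *Col7a1*, of the anchoring fibrils under epithelia, fell from 28.5 ± 1.8 to 14.2 ± 2.24 CPM (log2 fold change -1.0 with an SE of 0.16, edgeR adjusted p = 1.78e-04).

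Of basement membrane genes, 14 rose and 0 fell of 23, at a median log2 fold change of 0.77. *Agrn*, the proteoglycan agrin (chromosome 4, 156165290 to 156197488, minus strand), was at 45.9, 48.9 and 46.4 CPM in 2D WT and at 141, 119 and 131 CPM in 3D WT (log2 fold change 1.47 with an SE of 0.11, edgeR adjusted p = 2.38e-07). *Lama5* and *Col18a1*, a laminin chain and a collagen of basement membranes, rose by 0.73 and 0.59 on the log2 scale. *Col4a1*, the main collagen IV chain, was at 403, 314 and 398 CPM in 2D WT and at 473, 397 and 431 CPM in 3D WT with overlapping samples (log2 fold change 0.22 with an SE of 0.10, edgeR adjusted p = 0.084), and it passed the threshold in 6 alternative analyses. *Nid2*, a nidogen that links laminin to collagen IV, stayed under 3 CPM in every sample (log2 fold change 3.72 with an SE of 0.29, edgeR adjusted p = 2.44e-07).

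Glycoproteins and proteoglycans changed unevenly. Of matrix glycoproteins and elastic fibre genes, 19 rose and 7 fell of 41, with a median of 0.36, and of the 24 above the stray signal 11 rose and 5 fell, with a median of 0.16. *Fn1*, fibronectin (chromosome 1, 71585520 to 71653200, minus strand), was at 947, 1277 and 936 CPM in 2D WT and at 2847, 2880.1 and 3400.3 CPM in 3D WT (log2 fold change 1.53 with an SE of 0.16, edgeR adjusted p = 4.36e-06), a 2.89-fold rise. *Thbs1* and *Spp1*, thrombospondin 1 and osteopontin, also had high counts and did not pass the test (log2 fold changes 0.007 and -0.19, adjusted p = 0.963 and 0.224 by edgeR). *Ecm1*, a matrix protein of skin, rose from 7.83 ± 0.217 to 54.9 ± 2.23 CPM and *Ccn5*, a secreted protein that lacks the C-terminal module of its family, from 0.696 ± 0.225 to 18 ± 2.5 CPM (SD, n = 3). *Thbs2*, thrombospondin 2, fell to under 1 CPM (log2 fold change -2.37), where the expected stray signal made up 54.8% of its level.

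Of proteoglycans and hyaluronan genes, 11 rose and 1 fell of 23, with a median of 0.93, which came to 0.41 among the 16 above the stray signal. *Lum* and *Podn*, small leucine-rich proteoglycans like *Dcn*, rose from 0.0818 ± 0.0871 to 6.87 ± 1.72 CPM and from 0.0818 ± 0.0871 to 6.82 ± 0.223 CPM (SD, n = 3). *Gpc1*, a glypican and the member with the most counts, was at 808, 597 and 754 CPM in 2D WT and at 1270.3, 880.2 and 1089 CPM in 3D WT (log2 fold change 0.59 with an SE of 0.13, edgeR adjusted p = 0.00192). *Cd44*, the hyaluronan receptor, overlapped between the groups (log2 fold change 0.22 with an SE of 0.17, edgeR adjusted p = 0.299), and *Hmmr*, a hyaluronan receptor that also acts at the mitotic spindle, fell by 1.23 on the log2 scale.

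Of enzymes that hydroxylate, process or cross-link collagen, 15 rose and 4 fell of 24, at a median log2 fold change of 1.02. Without 3D WT replicate 3, only 2 fell. *P4ha1*, the catalytic subunit of collagen prolyl 4-hydroxylase (chromosome 10, 59323296 to 59373304, plus strand), was at 108, 104 and 107 CPM in 2D WT and at 495, 447 and 463 CPM in 3D WT (log2 fold change 2.14 with an SE of 0.081, edgeR adjusted p = 4.90e-10). *Plod2*, the lysyl hydroxylase that prepares stable cross-links, was at 94.2, 101 and 107 CPM in 2D WT and at 503, 493 and 542 CPM in 3D WT (log2 fold change 2.35 with an SE of 0.094, edgeR adjusted p = 5.99e-10). *P4ha2*, a second catalytic subunit, and *P4hb*, the shared subunit, had log2 fold changes of 3.82 and 1.18. In the other direction, *Tgm2*, a transglutaminase that cross-links matrix proteins, fell from 162 ± 9.52 to 73.7 ± 5.16 CPM (SD, n = 3, log2 fold change -1.14 with an SE of 0.10, edgeR adjusted p = 6.48e-07), and *Bmp1*, the proteinase that trims procollagen, had a log2 fold change of -0.73.

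Of matrix proteases, 19 rose and 4 fell of 36, and of protease inhibitors 9 rose and 2 fell of 16. *Mmp9*, the gelatinase B (chromosome 2, 164940780 to 164955850, plus strand), was at 0.674, 0.259 and 0.765 CPM in 2D WT and at 27.5, 15.6 and 19.6 CPM in 3D WT (log2 fold change 5.21 with an SE of 0.41, edgeR adjusted p = 2.72e-07). *Hpse*, the heparanase that cuts heparan sulfate, rose from 2.22 ± 0.466 to 33.8 ± 3.4 CPM (SD, n = 3), and *Htra3*, a secreted serine protease, had a log2 fold change of 2.79. In the other direction, *Plau*, the urokinase activator, fell from 34.6 ± 0.72 to 15.1 ± 0.877 CPM (log2 fold change -1.2 with an SE of 0.081, edgeR adjusted p = 6.47e-08). *Adamts1* and *Ctsl*, a matrix metalloprotease and the protease cathepsin L, fell by 0.54 and 0.73 on the log2 scale, and *Cst6*, a cystatin, by 1.36.

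Cytoskeleton genes moved in both directions, as all genes tested did. Single genes fell, such as tropomyosin, β-actin, some tubulins and lamin B1, and others rose, such as caveolin 1, *Krt8*, *Krt18* and *Rhob*. Of actins and actin filament regulators, 11 rose and 18 fell of 83, against 22.2% and 22.0% over all genes, and the median log2 fold change was -0.081. It lay closer to 0 without 2D WT replicate 1 or 3D WT replicate 2 or 3 (-0.017 at the closest). By library totals, 10 rose and 38 fell. *Tpm1*, a tropomyosin of stress fibres (chromosome 9, 67022590 to 67049406, minus strand), was at 882, 800.2 and 964 CPM in 2D WT and at 329, 337 and 280.3 CPM in 3D WT (log2 fold change -1.48 with an SE of 0.11, edgeR adjusted p = 1.70e-07). *Rdx*, radixin, which ties actin to the membrane, fell from 235 ± 20.2 to 119 ± 3.36 CPM (SD, n = 3, log2 fold change -0.98 with an SE of 0.091, edgeR adjusted p = 1.18e-06). *Actb*, β-actin, and *Flna*, a filamin that cross-links actin, fell by 0.48 and 0.43 on the log2 scale. *Tmsb10*, a thymosin that binds actin monomers, was at 328, 285 and 369 CPM in 2D WT and at 703, 707 and 622 CPM in 3D WT (log2 fold change 1.05 with an SE of 0.14, edgeR adjusted p = 3.97e-05), and copies of it elsewhere in the genome could share reads. *Pls1*, a plastin that bundles actin in microvilli, and *Marcks*, a substrate of protein kinase C at the membrane, had log2 fold changes of 2.35 and 1.02.

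Of focal adhesion genes, 14 rose (29.8%) and 11 fell (23.4%) of 47, against 22.2% and 22.0% over all genes. Their median, 0.11, turned to -0.11 by library totals, where 10 rose and 14 fell, so no direction is given for the list, and without 2D WT replicate 3 only 7 fell. *Cav1*, caveolin 1, which shapes membrane caveolae (chromosome 6, 17306335 to 17341452, plus strand), was at 512, 503 and 525 CPM in 2D WT and at 1364, 1157 and 1414 CPM in 3D WT (log2 fold change 1.35 with an SE of 0.088, edgeR adjusted p = 4.45e-08). *Tns1*, a tensin that links integrins to actin, rose from 14.8 ± 2.32 to 57.9 ± 3.34 CPM (SD, n = 3), and *Lims2*, an adaptor of integrin-linked kinase, had a log2 fold change of 3.31 from a level under 1 CPM. *Trip6* and *Ajuba*, LIM domain proteins of adhesions, fell by 0.91 and 0.61 on the log2 scale.

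Of tubulins and microtubule regulators, 8 rose and 21 fell of 46, with a median of -0.32, and of the 39 above the stray signal 5 rose and 22 fell. The falls were 45.65% of the 46, near the 43.6% of all genes at 100 CPM or more. *Tubb4b*, a β-tubulin (chromosome 2, 25222160 to 25224702, minus strand), was at 558, 481 and 545 CPM in 2D WT and at 285, 288 and 293 CPM in 3D WT (log2 fold change -0.87 with an SE of 0.091, edgeR adjusted p = 3.64e-06), and close copies of tubulin genes could share reads. *Mapre1* and *Clip1*, which track growing microtubule ends, fell from 237 ± 3.37 to 121 ± 11.8 CPM and from 159.6 ± 5.22 to 86.5 ± 4.97 CPM (SD, n = 3). *Tubb5*, another β-tubulin, had a log2 fold change of -0.24 (adjusted p = 0.0651 by edgeR), and *Tuba1b*, an α-tubulin, of -0.47. *Mapre3*, a relative of *Mapre1*, rose from a low level (log2 fold change 1.28).

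Of keratins and other intermediate filament genes, 5 rose (29.4%) and 6 fell (35.3%) of 17, against 22.2% and 22.0% over all genes. *Krt8*, a keratin of simple epithelia (chromosome 15, 101996698 to 102004482, minus strand), was at 374, 359.7 and 373 CPM in 2D WT and at 648, 485 and 574 CPM in 3D WT (log2 fold change 0.63 with an SE of 0.10, edgeR adjusted p = 1.98e-04). *Krt18*, its partner, rose from 195 ± 18.3 to 347 ± 34.2 CPM (SD, n = 3, log2 fold change 0.83 with an SE of 0.10, edgeR adjusted p = 1.30e-05). *Vim*, vimentin of mesenchymal cells, was also higher (log2 fold change 0.42 with an SE of 0.092, edgeR adjusted p = 0.0021), but missed the threshold by library totals. *Nes*, nestin, fell from 105 ± 18.8 to 45.6 ± 7.45 CPM and *Lmnb1*, lamin B1 of the nuclear envelope, from 95.5 ± 9.99 to 34.5 ± 2.5 CPM. *Krt7*, another ductal keratin, was under 3 CPM in every sample and lower in 3D WT (log2 fold change -1.82). *Rhob*, a small GTPase of endosomes and stress, was at 21.9, 14.6 and 15.4 CPM in 2D WT and at 89.6, 75.5 and 93 CPM in 3D WT (log2 fold change 2.32 with an SE of 0.14, edgeR adjusted p = 1.81e-08). *Cdc42ep2*, an effector of Cdc42, had a log2 fold change of 1.1.

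**Figure D4:**
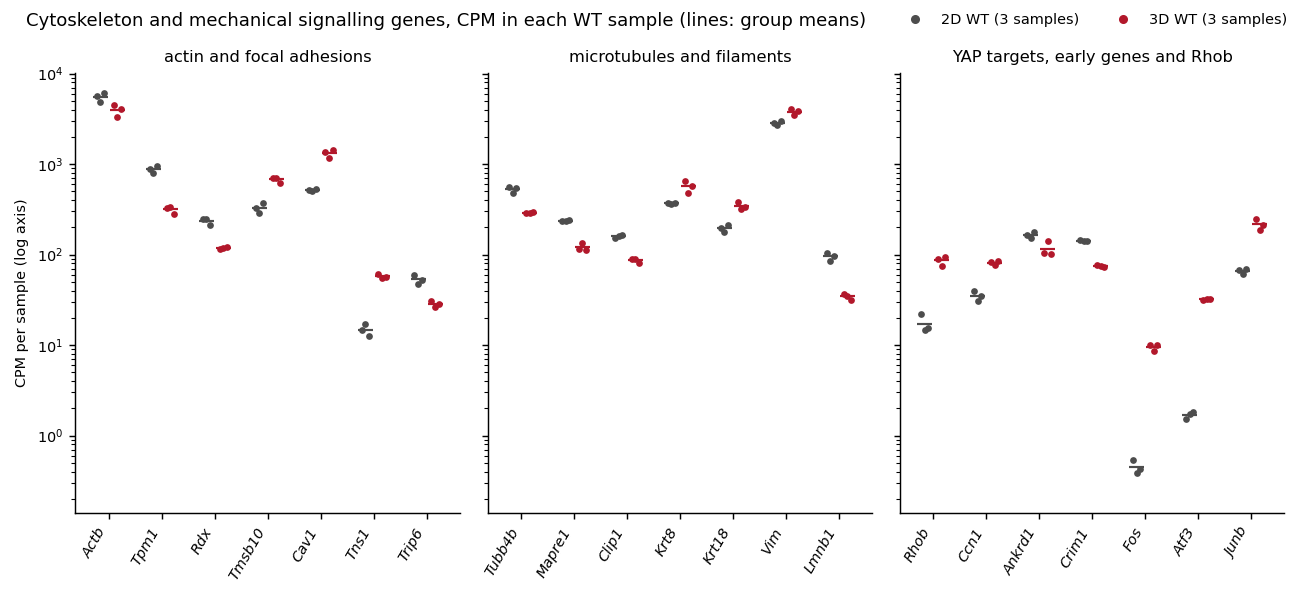
CPM on a log axis in each of the 3 samples of 2D WT (grey) and 3D WT (red) for genes of actin and focal adhesions, of microtubules and filaments, and of YAP targets, immediate early genes and *Rhob*, with group means as lines. The 3D WT samples lie below the 2D WT samples for *Tpm1*, *Rdx*, *Tubb4b*, *Mapre1* and *Lmnb1* and above them for *Cav1*, *Krt8*, *Rhob*, *Ccn1* and *Atf3*.

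Targets of YAP and TEAD, transcription regulators that respond to cell spreading and stiffness, did not move together. Of 21 tested, 7 rose (33.3%) and 5 fell (23.8%), against 22.2% and 22.0% over all genes, at a median log2 fold change of -0.14. Without 2D WT replicate 1, 2D WT replicate 3 or 3D WT replicate 2 only 3 fell. The median came to -0.001 without 2D WT replicate 2 and to -0.077 without 3D WT replicate 3. The pair of matricellular genes most used as readouts went in opposite directions. *Ccn1* (chromosome 3, 145646976 to 145649981, minus strand) was at 39.5, 30.5 and 34.6 CPM in 2D WT and at 82.3, 77.3 and 85.1 CPM in 3D WT (log2 fold change 1.23 with an SE of 0.10, edgeR adjusted p = 4.06e-07). *Ccn2* (chromosome 10, 24595442 to 24598683, plus strand) was at 56.3, 53.4 and 52.4 CPM in 2D WT and at 17.9, 19.5 and 19.8 CPM in 3D WT (log2 fold change -1.5 with an SE of 0.082, edgeR adjusted p = 9.23e-09). *Nt5e*, the surface enzyme CD73 that makes adenosine, rose from 9.28 ± 0.701 to 57.8 ± 1.58 CPM and *F3*, tissue factor, from 1.53 ± 0.316 to 6.93 ± 1.25 CPM (SD, n = 3). *Ankrd1*, a nuclear repeat protein, and *Crim1*, which binds growth factors at the membrane, fell by 0.50 and 0.94 on the log2 scale. The TEAD motif GGAATG was searched on both strands in the same promoter windows, and 7 of 15 list genes with a window (46.7%) held it, against 4481 of all 27025 genes with a window (16.6%).

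Immediate early transcription factors, which answer growth factors and stress within minutes, rose. Of 29, 22 rose and 1 fell, with a median of 1.35. For genes that respond this fast, culture form and handling at harvest cannot be told apart. *Fos*, a subunit of AP-1 (chromosome 12, 85473890 to 85477273, plus strand), was at 0.539, 0.388 and 0.431 CPM in 2D WT and at 9.96, 8.67 and 10.1 CPM in 3D WT (log2 fold change 4.41 with an SE of 0.24, edgeR adjusted p = 7.44e-09). *Atf3*, a factor of the stress response, was at 1.54, 1.74 and 1.84 CPM in 2D WT and at 31.4, 32.3 and 32.3 CPM in 3D WT (log2 fold change 4.22 with an SE of 0.22, edgeR adjusted p = 6.45e-09). *Junb*, another AP-1 subunit, rose from 66.2 ± 4.1 to 216 ± 29.5 CPM (SD, n = 3), whereas *Mafk*, a small Maf protein, was lower by 0.48 on the log2 scale, and its adjusted p missed the threshold in 3 alternative analyses.

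Of regulators of epithelial and mesenchymal states, 12 rose and 3 fell of 16. *Klf4*, a factor of epithelial differentiation, was at 22.7, 25.3 and 19.8 CPM in 2D WT and at 62.9, 64 and 64.1 CPM in 3D WT (log2 fold change 1.49 with an SE of 0.12, edgeR adjusted p = 2.38e-07). *Snai1*, a repressor of E-cadherin, rose from a low level (log2 fold change 1.5) and *Zeb2*, another repressor, by 0.54 on the log2 scale. Its relative *Zeb1* fell (log2 fold change -0.63), as did *Twist2*, a mesenchymal factor, from 60.6 ± 4.68 to 22.1 ± 2.32 CPM (SD, n = 3, log2 fold change -1.45 with an SE of 0.11, edgeR adjusted p = 2.38e-07). Members that promote mesenchymal states thus moved in both directions.

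Of TGF-β and BMP genes, 16 rose and 6 fell of 40, with a median of 0.26, and of Notch genes 9 rose and 3 fell of 18. Secreted antagonists of activin rose: *Fstl3* was at 2.35, 1.78 and 1.99 CPM in 2D WT and at 32.5, 22.2 and 27.3 CPM in 3D WT (log2 fold change 3.75 with an SE of 0.18, edgeR adjusted p = 2.40e-09), and *Fst*, follistatin, had a log2 fold change of 2.05. *Tgfbr2*, the type II TGF-β receptor, rose from 122 ± 9.06 to 269 ± 40.9 CPM and *Gdf11*, a ligand of the family, fell from 17.1 ± 1.47 to 7.29 ± 0.495 CPM (SD, n = 3). *Notch3*, a Notch receptor (chromosome 17, 32120820 to 32166852, minus strand), was at 2.66, 4.37 and 2.93 CPM in 2D WT and at 41.8, 36.3 and 38.8 CPM in 3D WT (log2 fold change 3.55 with an SE of 0.23, edgeR adjusted p = 4.38e-08). *Hey1*, a target of Notch, and *Rbpj*, the DNA-binding partner, had log2 fold changes of 3.29 and 1.17, and *Dlk2*, a membrane inhibitor of Notch, of -1.77.

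Of chemokines, cytokines and acute phase genes, 13 rose and 5 fell of 28. Besides the fall of *Ccl2* and *Ccl7* given above, *Ccl9*, a CC chemokine, rose from 21.6 ± 0.641 to 95.4 ± 6.88 CPM (SD, n = 3, log2 fold change 2.14 with an SE of 0.13, edgeR adjusted p = 2.38e-08). *Il33*, an alarmin of the interleukin 1 family, rose from 0.992 ± 0.164 to 11.9 ± 0.575 CPM, *C3*, the central complement component, from 2.36 ± 0.187 to 16.2 ± 1.47 CPM, and *Lif*, a cytokine of the interleukin 6 family, from 1.62 ± 0.309 to 7.57 ± 0.176 CPM (SD, n = 3). *Csf1*, the macrophage growth factor, rose by 0.75 on the log2 scale. *Cxcl5*, a chemokine for neutrophils, is the gene targeted in the second genotype. It was at 45.6, 47.3 and 49.1 CPM in 2D WT and at 28.5, 24.5 and 28 CPM in 3D WT (log2 fold change -0.81 with an SE of 0.14, edgeR adjusted p = 3.79e-04). In the control spheroids of the conditioned media experiment it was at 78.1, 117 and 107 CPM. The WT samples of the rescue experiment had 64.2 and 67.7 CPM. These levels all lay above 2D WT, against the fall in 3D WT, and were not tested across experiments. The paper reports, by western blot, more of the protein in spheroid than in flat culture.

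Genes of the hypoxic response outside glycolysis rose with no fall among them: 35 rose and 0 fell of 37 tested, at a median log2 fold change of 2.19, and 35 rose when any 1 of the samples was left out. *Ero1a*, an oxidase of the endoplasmic reticulum (chromosome 14, 45283087 to 45318771, minus strand), was at 95.2, 96.2 and 87.2 CPM in 2D WT and at 2602, 2359 and 2740.1 CPM in 3D WT (log2 fold change 4.79 with an SE of 0.11, edgeR adjusted p = 6.44e-12). *Car9*, a carbonic anhydrase at the cell surface (chromosome 4, 43506966 to 43513729, plus strand), was at 0.25, 0.388 and 0.362 CPM in 2D WT and at 22.6, 24.6 and 32.9 CPM in 3D WT (log2 fold change 6.29 with an SE of 0.25, edgeR adjusted p = 5.99e-10). *Adm*, the vasodilator adrenomedullin, rose from 0.549 ± 0.22 to 38.1 ± 1.05 CPM (SD, n = 3), *Ndrg1*, a stress protein, from 70.5 ± 2.86 to 1696 ± 148 CPM, and *Bnip3*, a mitophagy receptor, from 78.3 ± 1.25 to 1139.8 ± 54.8 CPM. The 3D WT samples lay above the 2D WT samples in all of these.

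The core of the hypoxia response element, ACGTG, was searched on both strands of the promoter windows, and 21 of 30 list genes with a window (70.0%) held it, against 5886 of all 27025 genes with a window (21.8%). The letters are also part of the E-box CACGTG, which 7 of these list genes held. Windows of *Car9* and *Ero1a* are shown, the named members with the largest rises that held the motif before the start, with the match in capitals.
Car9 promoter, GRCm38.p6, chr4:43506776-43507025, plus strand: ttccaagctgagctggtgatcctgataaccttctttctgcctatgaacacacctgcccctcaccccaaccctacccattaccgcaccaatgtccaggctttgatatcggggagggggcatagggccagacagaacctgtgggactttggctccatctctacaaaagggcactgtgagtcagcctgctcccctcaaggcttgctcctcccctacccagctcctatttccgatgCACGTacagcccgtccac
Ero1a promoter, GRCm38.p6, chr14:45318573-45318822, minus strand: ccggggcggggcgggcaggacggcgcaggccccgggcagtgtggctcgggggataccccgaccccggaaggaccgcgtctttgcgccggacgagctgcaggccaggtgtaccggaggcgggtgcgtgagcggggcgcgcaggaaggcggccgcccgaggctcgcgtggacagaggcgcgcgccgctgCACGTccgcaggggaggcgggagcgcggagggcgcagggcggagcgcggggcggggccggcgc
The match ended 13 bases before the start in *Car9* and 58 bases before it in *Ero1a*.

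Of glycolysis genes, 21 rose and 2 fell of 25, and of sterol synthesis genes 23 rose and 0 fell of 26. *Slc2a1*, the glucose transporter GLUT1, was at 31, 25.3 and 23.9 CPM in 2D WT and at 170.4, 137 and 153 CPM in 3D WT (log2 fold change 2.52 with an SE of 0.11, edgeR adjusted p = 1.08e-09). *Aldoc*, the brain-type aldolase, rose from 1.63 ± 0.364 to 46.1 ± 3.74 CPM (SD, n = 3), whereas *Eno3*, the muscle-type enolase, was at 293, 276 and 310.4 CPM in 2D WT and at 149.8, 147 and 139.8 CPM in 3D WT (log2 fold change -1.01 with an SE of 0.089, edgeR adjusted p = 7.66e-07). *Pkm*, pyruvate kinase, had a log2 fold change of 0.90. In sterol synthesis, *Tm7sf2*, a sterol reductase, and *Mvd*, a decarboxylase of mevalonate, had log2 fold changes of 3.17 and 1.88, and *Hmgcs1*, the synthase at the entry, of 1.2.

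Of fatty acid genes, 14 rose and 1 fell of 25. *Acss2*, which makes acetyl-CoA from acetate (chromosome 2, 155517948 to 155585724, plus strand), was at 29, 25.3 and 29.2 CPM in 2D WT and at 517, 441 and 473 CPM in 3D WT (log2 fold change 4.1 with an SE of 0.11, edgeR adjusted p = 3.16e-11), a 17.1-fold rise. *Lpin1*, a phosphatase of lipid synthesis, rose from 26.4 ± 0.943 to 194 ± 22.6 CPM and *Scd2*, a desaturase, from 2986 ± 150.1 to 5725 ± 694 CPM (SD, n = 3). *Fasn*, the fatty acid synthase itself, overlapped between the groups (log2 fold change 0.070 with an SE of 0.11, edgeR adjusted p = 0.659).

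In each of 3 lists of mitochondrial genes more members fell than rose, mostly by small amounts. Of TCA cycle enzymes, 3 rose and 20 fell of 26, with a median of -0.37, and of nuclear genes of the respiratory complexes 6 rose and 41 fell of 89, with a median of -0.29. The falls were 76.9% and 46.1% of members, against 43.6% of all genes at 100 CPM or more, so the second share lay near that of abundant genes. Without 3D WT replicate 3, 27 of the respiratory complex genes fell. Of the TCA cycle enzymes only 1 rose when 2D WT replicate 2, 2D WT replicate 3, 3D WT replicate 1 or 3D WT replicate 3 was left out. Of 13 mitochondrially encoded protein genes, 2 rose and 7 fell. Leaving out any 1 sample other than 2D WT replicate 3 brought the rises to 1. Their summed level was nevertheless higher, at 7562 to 8539 CPM in 2D WT and 9465 to 10100 CPM in 3D WT. *Atp5b*, the β subunit of ATP synthase, was at 1348, 1247 and 1414 CPM in 2D WT and at 895, 747 and 787 CPM in 3D WT (log2 fold change -0.72 with an SE of 0.094, edgeR adjusted p = 2.79e-05). *Ndufaf2*, an assembly factor of complex I, had a log2 fold change of -1.7. *Pcx*, pyruvate carboxylase, fell from 84.5 ± 11.6 to 37 ± 9.24 CPM and *Idh3a*, the NAD-dependent isocitrate dehydrogenase, from 85.5 ± 2.76 to 45.2 ± 6.72 CPM (SD, n = 3), whereas *Idh1*, the cytosolic NADP-dependent enzyme, rose by 0.76 on the log2 scale. *Cox7a1*, a muscle form of a complex IV subunit, rose from a low level (log2 fold change 2.54).

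Folate enzymes were split. Of serine, glycine and one-carbon enzymes, 5 rose and 11 fell of 18. *Aldh1l1*, the cytosolic enzyme that oxidises formyl-folate (chromosome 6, 90486427 to 90600203, plus strand), was at 8.07, 6.32 and 7.83 CPM in 2D WT and at 77.7, 60.6 and 62.4 CPM in 3D WT (log2 fold change 3.18 with an SE of 0.13, edgeR adjusted p = 6.50e-10), and its mitochondrial relative *Aldh1l2* rose from 15.2 ± 0.0777 to 58.8 ± 3.89 CPM (SD, n = 3). *Mthfd1*, the cytosolic enzyme of folate interconversion, was at 148, 141 and 164 CPM in 2D WT and at 64.1, 50.4 and 54.3 CPM in 3D WT (log2 fold change -1.42 with an SE of 0.10, edgeR adjusted p = 6.77e-08). Of lysosome genes, 24 rose and 6 fell of 43, with rises in *Psap*, the precursor of saposins (log2 fold change 0.91), and *Ctsd*, cathepsin D (log2 fold change 0.77), and a fall in *Gla*, a galactosidase (log2 fold change -0.88).

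Genes of cell division fell with a single exception among those called. Of 42 DNA replication genes, 0 rose and 39 fell, and of 48 mitosis and spindle genes, 1 rose and 47 fell. The medians were -0.98 and -0.93. *Dna2*, a nuclease and helicase of replication (chromosome 10, 62947026 to 62974185, plus strand), was at 25.3, 27.4 and 25.7 CPM in 2D WT and at 9.44, 7.4 and 6.86 CPM in 3D WT (log2 fold change -1.72 with an SE of 0.12, edgeR adjusted p = 9.92e-08). *Top2a*, a topoisomerase that rises before mitosis, was at 1199.9, 1220.5 and 1244 CPM in 2D WT and at 569.7, 603 and 546 CPM in 3D WT (log2 fold change -1.09 with an SE of 0.076, edgeR adjusted p = 8.85e-08). *Mki67*, the proliferation marker, fell from 837 ± 76.2 to 422 ± 48.2 CPM, *Rrm1*, of ribonucleotide reductase, from 401 ± 13.4 to 198 ± 8.58 CPM, and *Ndc80*, of the kinetochore, from 103 ± 1.86 to 34.6 ± 5.6 CPM (SD, n = 3). The exception that rose was *Pttg1*, securin, by 0.54 on the log2 scale, and it missed the threshold by library totals and without 3D WT replicate 1. In bulk RNA, fewer dividing cells and less RNA of these genes per cell cannot be told apart.

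The E2F motif was searched as TTTCGCGC or TTTGGCGC on both strands, and 10 of 35 list genes with a window (28.6%) held it, against 251 of all 27025 genes with a window (0.93%). The window of *Mcm5*, a subunit of the replicative helicase (log2 fold change -1.4), is shown as the named member with a match before the start. Its 2 matches, 1 on each strand, overlap and are in capitals.
Mcm5 promoter, GRCm38.p6, chr8:75109259-75109508, plus strand: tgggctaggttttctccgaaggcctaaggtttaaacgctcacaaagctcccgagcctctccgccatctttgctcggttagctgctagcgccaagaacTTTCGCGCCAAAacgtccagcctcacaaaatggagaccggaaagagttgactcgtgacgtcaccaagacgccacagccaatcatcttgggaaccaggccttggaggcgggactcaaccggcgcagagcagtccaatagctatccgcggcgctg
The matches ended 141 bases before the start.

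Inhibitors of the cell cycle and p53 targets were mixed, and of 27 tested 12 rose and 8 fell. With 2D WT replicate 1 or 3 or 3D WT replicate 2 or 3 left out, 4 to 5 fell. *Cdkn1a*, the inhibitor p21 (chromosome 17, 29090976 to 29100727, plus strand), was at 9.19, 11.7 and 9.82 CPM in 2D WT and at 69.7, 67.4 and 66.4 CPM in 3D WT (log2 fold change 2.72 with an SE of 0.37, edgeR adjusted p = 3.79e-05). *Ccng2*, a cyclin of resting cells, was at 27.5, 28.4 and 27 CPM in 2D WT and at 142, 142 and 136 CPM in 3D WT (log2 fold change 2.34 with an SE of 0.067, edgeR adjusted p = 3.90e-11), and *Ddit4*, an inhibitor of mTORC1, had a log2 fold change of 2.18. Of cytosolic ribosomal protein genes, 1 rose and 30 fell of 79, and of mitochondrial ones 1 rose and 41 fell of 78, with medians of -0.29 and -0.35. The falls were 38.0% and 52.6% of members. Over all genes, 43.6% fell at 100 CPM or more and 38.8% at 10 to 100 CPM, with medians of -0.21 and -0.15. The share of falls among cytosolic ones thus did not exceed that of abundant genes. When any 1 of the samples was left out, 15 to 26 of the cytosolic ones fell, with 15 without 3D WT replicate 3 and 19 without 2D WT replicate 3. By library totals, 61 cytosolic and 68 mitochondrial ones fell. *Rpl14* was among the larger falls (log2 fold change -0.89 with an SE of 0.13, edgeR adjusted p = 6.04e-05), although pseudogenes could share its reads.

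Of clustered histone genes, 2 rose and 23 fell of 68, but with any 1 of the samples left out only 3 to 15 fell. Of chaperones of the endoplasmic reticulum, 12 rose and 7 fell of 32, with a median of 0.031. By library totals 10 rose and 12 fell, with a median of -0.18, so no direction is given for this list. Its largest rise was in *Ppp1r15a*, the phosphatase subunit GADD34, from 6.48 ± 1.25 to 38 ± 3.01 CPM (SD, n = 3). Of heat shock proteins, 9 rose and 12 fell of 24. *Cryab*, αB-crystallin, was at 29, 25.7 and 33.6 CPM in 2D WT and at 138, 112 and 135 CPM in 3D WT (log2 fold change 2.12 with an SE of 0.13, edgeR adjusted p = 2.97e-08), whereas *Hspd1*, the mitochondrial chaperonin, fell from 648 ± 28.9 to 249 ± 24.5 CPM and *Hsp90aa1*, the inducible cytosolic HSP90, from 1078 ± 60.5 to 520.3 ± 85.9 CPM.

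The tissue label was checked against markers. In these pancreatic cancer cells *Krt8*, *Krt18* and *Spp1*, ductal markers, were abundant, and *Sox9*, a ductal transcription factor, was at 5.47, 8.21 and 4.23 CPM in 2D WT and at 12.9, 13.4 and 14.6 CPM in 3D WT. Other defining ductal markers were absent or nearly so: *Epcam*, *Cdh1*, *Cldn4* and *Cftr* had no counts in 2D WT and at most 7 in any 3D WT sample. Markers of other cell types were looked for in the same way, although the methods name no cells besides Panc02 in these cultures. Of 12 leukocyte markers, 5 passed the filter, of which 3 rose and 0 fell. *Cd3e*, *Adgre1* and *Tyrobp* had no counts in any of the 6 samples, *Ptprc* had none in 2D WT and 0.388, 0.584 and 0.646 CPM in 3D WT, and *Cd68* and *Lyz2* were at 4.15, 5.14 and 4.37 and 2.6, 2.92 and 2.67 CPM in 3D WT against 1.5, 0.978 and 1.53 and 1.08, 0.777 and 0.82 CPM in 2D WT. The summed level of the 5 leukocyte markers tested was 1.9 to 2.66 CPM in 2D WT and 7.46 to 8.85 CPM in 3D WT. It moved with *Nos2*, *Ighm* and the interferon-stimulated genes, which leukocytes also express, and its part in these results was not tested.

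Of 12 fibroblast and pericyte markers, 8 were tested, and 3 rose and 2 fell. *Dcn*, *Lum* and *Col1a1* rose, *Pdgfrb*, a receptor of pericytes, was at 151, 144 and 160.2 CPM in 2D WT and at 94.3, 83.4 and 87.1 CPM in 3D WT, and *Pdgfra* at 22.5, 24.2 and 22.4 CPM in 2D WT and at 20.4, 23.6 and 20.1 CPM in 3D WT. *Thy1*, *Postn* and *Fap* had no counts in 2D WT and at most 6 in 3D WT. Of 12 markers of parietal endoderm, the cell type of the tumor from which Matrigel is made, *Gata4*, *Gata6* and *Foxa2* had no counts in any sample, *Lama1* had 7 counts in a single 3D WT sample, and *Sox17* had none in 2D WT and 5 to 14 in 3D WT. Of these 12, 4 passed the filter, of which 1 rose and 0 fell. The call was *Sparc*, a matrix glycoprotein, with 12214 to 17992 counts in 2D WT and 11461 to 17105 in 3D WT (log2 fold change 0.37), and this call was lost by library totals and without 2D WT replicate 2 or 3D WT replicate 1. *Col4a1* and *Col4a2*, collagen chains of basement membranes, had 16995 to 28604 and 4290 to 6816 counts over the 6 samples. *Afp* had 48 to 95 in 2D WT and 47 to 71 in 3D WT. The summed level of the 4 was 617 to 746 CPM in 2D WT and 766 to 921 CPM in 3D WT. Their part in the matrix results was not tested. Of 10 endothelial markers 2 passed the filter and none was called, and of 12 acinar and islet markers 2 passed, of which 1 fell, and *Cpa1*, *Prss1*, *Ins1* and *Ins2* had no counts.

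Levels in other WT spheroids of the study were read beside these, each scaled within its own count table and with no test across tables. *Nos2* was at 30.9, 1.23 and 15.8 CPM in the 3 control spheroids of the conditioned media experiment and at 20.3 and 27.2 CPM in the 2 WT samples of the rescue experiment, against 0 in 2D WT. *Ifi44* was at 12.5, 15 and 19.6 and at 11 and 12.5 CPM, above 2D WT and below 3D WT. *Krt19* was at 0, 0 and 0.157 CPM in the control spheroids, at the level of 2D WT or below, and at 8.85 and 10.9 CPM in the rescue samples. *Dcn* was at 123, 134 and 152 and at 3.99 and 5.04 CPM, and *P4ha2* was listed at 0, 0 and 0 and at 15.9 and 16 CPM. *Bcam* was at 0.258, 0 and 0.157 and at 3.27 and 2.59 CPM, below 2D WT in all, against its rise in 3D WT. *Cldn1* was at 0.274, 0.927 and 0.696 and at 8.32 and 11.8 CPM. *Cav1* was at 309, 321 and 386 and at 893 and 949 CPM. *Cdkn1a* was at 6.99, 1.23 and 6.06 and at 60.3 and 56.2 CPM. *Cldn1*, *Cav1* and *Cdkn1a* thus lay below 2D WT in the control spheroids and above it in the rescue samples. Of the genes given here, *Krt19* in 2 of the 3 control spheroids, *Bcam* in control spheroid 2 and *P4ha2* in all 3 had no counts. *Aldoc* was at 0.791, 1.22 and 0.522 and at 0.684 and 2.46 CPM, near its level in 2D WT. *Ccdc88c* was at 8.78, 11.9 and 11.8 and at 10.5 and 9.09 CPM, also near 2D WT. *Ero1a* was at 1081, 211 and 787 and at 2206 and 2330 CPM, above 2D WT in all. A change between 3D WT and 2D WT thus need not be found in other WT spheroids. Differences between tables were not tested, and the genes given here are only a part of those named.

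The change from 2D to 3D was also read in the second genotype, which shares no sample with WT, and the difference between the effects was tested as an interaction. The transcript of *Cxcl5* was higher in the libraries labelled 3D Cxcl5-/- (50.6 ± 13.1 CPM, SD, n = 3) than in 3D WT (27 ± 2.17 CPM). A targeted gene can keep its transcript, so these counts do not settle the label, and directions are given for libraries as labelled. The 3D effect was more positive in WT for 16.1% of genes tested and more negative for 11.1%, or 3431 and 2376 genes. By library totals these counts turned to 1359 and 4585. The 3D libraries of the genotypes also differed in composition. Satellite-like genes took 0.37 to 0.478% of counts under the label 3D Cxcl5-/-, against 6.97 to 16% in 3D WT. The receptor genes used for stray signal summed to 43 to 44.8 CPM, against 116 to 173 CPM in 3D WT. The part of this in the interaction was not tested, and the list counts below are given under TMM only. Of the interferon-stimulated genes, 39 of 44 rose in the second genotype, with a median of 3.84, and the effect was more positive in WT in 5 and more negative in 10. Protocadherins rose in 38 of 43, with a more positive effect in WT in 0 and a more negative one in 27. Immediate early genes had a more positive effect in WT in 16 of 29 and a more negative one in 1. For actin genes these counts were 30 and 14 of 83. Larger shares were found elsewhere. The effect was more positive in WT, and in no member more negative, in 44 of 48 mitosis and spindle genes, 22 of 26 sterol genes and 61 of 79 cytosolic ribosomal protein genes.

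Several adhesion and cytoskeleton genes changed in opposite directions in the genotypes. *Cav1* rose in WT by 1.35 and had a log2 fold change of -1.1 under the label Cxcl5-/- (difference 2.45 with an SE of 0.12, edgeR adjusted p = 5.60e-08). *Krt18* had effects of 0.83 and -1.35 (difference 2.18 with an SE of 0.14, edgeR adjusted p = 4.85e-07). *Ccn1* and *Ccn2* again went opposite ways, with effects of 1.23 in WT and -1.2 in the second genotype for *Ccn1* and of -1.5 and 1.32 for *Ccn2*. *Cldn1* rose in WT and had a log2 fold change of -1.66 in the second genotype (difference 4.04 with an SE of 0.75, edgeR adjusted p = 0.00145), although its change there was not past the threshold (adjusted p = 0.0574 by edgeR).

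**Figure D5:**
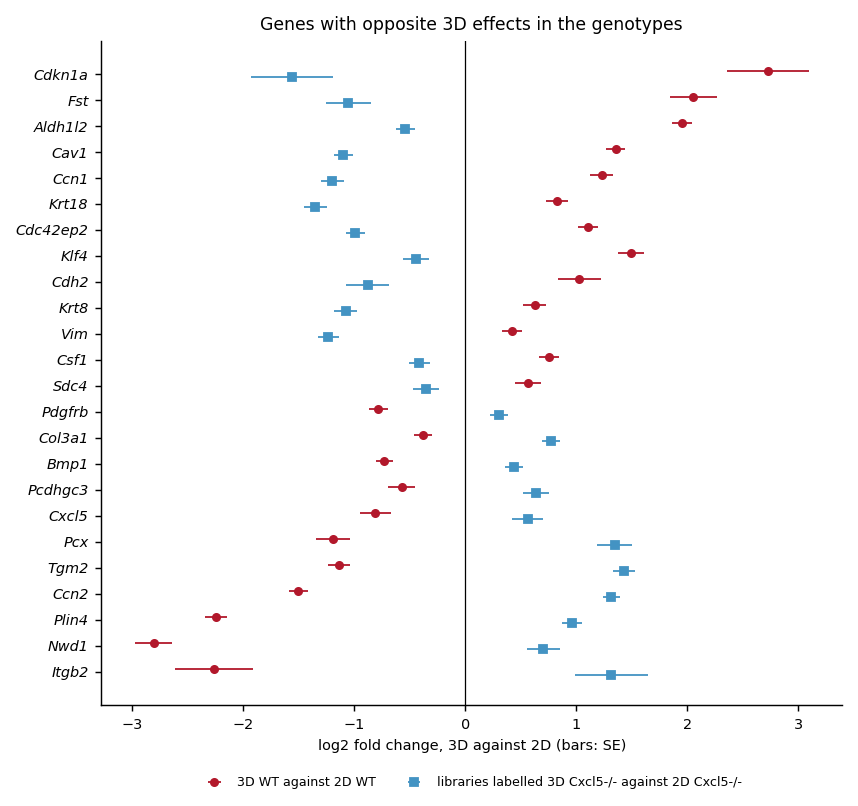
Log2 fold change between 3D and 2D culture in WT (red circles) and between the libraries labelled 3D Cxcl5-/- and 2D Cxcl5-/- (blue squares) for 24 genes named in the text that were called in opposite directions, with the SE of each as a bar. *Cdkn1a* has the widest gap, and *Ccn1* and *Ccn2* lie on opposite sides in each genotype.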

How the data were processed

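Total RNA of WT Panc02 cells from 2D culture and from spheroids, 3 samples each, was sequenced by the authors from stranded total RNA libraries, and reads were aligned with HISAT2 to GRCm38 (mm10) and assigned to genes with StringTie, as the study's methods and the submitters' processing notes state. The deposited values are counts per gene, not normalized by the authors, for 56980 entries. The annotation release is not given in the sources used here; 52125 entries matched GENCODE M21, from which gene types and coordinates were taken, and 12.9% of counts were in entries with no match. Promoter windows are those of RefSeq on GRCm38.p6.

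Counts of all 12 samples of this table were filtered with filterByExpr, scaled by TMM and fitted with the quasi-likelihood test of edgeR 4.0.16 (limma 3.58.1, R 4.3.3) with 1 coefficient per group, and p-values were adjusted by Benjamini-Hochberg over 21367 genes. The study's own analysis used DESeq2, which was run here as an alternative (1.42.0). CPM values use TMM-scaled library totals, and standard errors belong to the log2 fold change. Samples were grouped by their labels. No 2 samples of 2D WT or of 3D WT agreed within sampling noise.

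Genes named were taken from the 15 largest rises and falls among called genes without overlap and with a mean count not under 200, and for each of 49 gene lists from the 3 largest rises and falls with a mean count not under 50 and the 3 members of highest level, besides *Cxcl5* and the markers. The gene lists, the marker lists and this comparison were chosen with earlier results of these data known. Lists are described by counts and medians only. The alternatives were other scalings, another test, other filters, only WT samples, a replicate block, each sample left out, entries of a symbol summed and a fold limit. Restrictions to protein-coding genes and to genes above the stray signal were added after seeing the data. A gene counted as above it if its expected stray signal in each WT sample of either culture was under 10% of a mean level. That mean was taken over the WT samples of both cultures, so a gene low in 3D WT could pass with a larger share there. The expected stray signal was the level per base of the 2043 receptor genes multiplied by the exon length of a gene. The fits were tested on simulated data. Some genes and 1 gene list are not reported here.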

Additional observations from a re-analysis of the deposited data

Results flagged for a closer look

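For 24 of 205 named genes the change from 2D to 3D culture was called in opposite directions in WT cells and in the libraries labelled Cxcl5-/-. In each, the difference between the effects passed the interaction test of edgeR, with adjusted p of at most 0.00128 (*Sdc4*). The share of all genes tested with this pattern was not computed. Many of the genes were named for a large change in WT, so the count is no measure of how common the pattern is. More *Cxcl5* transcript was counted in 3D under the label Cxcl5-/- than in WT. A targeted gene can keep its transcript, so the counts do not settle that label. Values are the log2 fold change in WT, that in the second genotype and the difference of WT minus the second genotype.

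Genes of adhesion and filaments with a rise in WT and a fall in the second genotype were *Cav1* (1.35 and -1.1, difference 2.45), *Cdc42ep2* (1.1 and -0.99, difference 2.09), *Cdh2* (1.03 and -0.88, difference 1.91), *Krt18* (0.83 and -1.35, difference 2.18), *Krt8* (0.63 and -1.08, difference 1.7), *Sdc4* (0.57 and -0.35, difference 0.92) and *Vim* (0.42 and -1.23, difference 1.65). The same pattern was found in growth, signalling and metabolic genes, *Aldh1l2* (1.95 and -0.54, difference 2.49), *Ccn1* (1.23 and -1.2, difference 2.42), *Cdkn1a* (2.72 and -1.56, difference 4.29), *Csf1* (0.75 and -0.42, difference 1.17), *Fst* (2.05 and -1.05, difference 3.11) and *Klf4* (1.49 and -0.44, difference 1.94).

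Genes of matrix and adhesion with a fall in WT and a rise in the second genotype were *Bmp1* (-0.73 and 0.44, difference -1.16), *Ccn2* (-1.5 and 1.32, difference -2.82), *Col3a1* (-0.38 and 0.77, difference -1.15), *Itgb2* (-2.26 and 1.32, difference -3.58), *Pcdhgc3* (-0.57 and 0.63, difference -1.21) and *Tgm2* (-1.14 and 1.43, difference -2.57). The others were *Cxcl5* (-0.81 and 0.56, difference -1.37), *Nwd1* (-2.81 and 0.70, difference -3.51), *Pcx* (-1.19 and 1.34, difference -2.53), *Pdgfrb* (-0.78 and 0.30, difference -1.09) and *Plin4* (-2.24 and 0.96, difference -3.2).

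By library totals the median of all genes moved, and 1359 genes in place of 3431 had a more positive effect in WT. The cause of the opposite effects was not tested.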

How the results depend on the processing

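The counts of genes higher (4752) and lower (4707) in 3D WT were 4387 to 4900 and 3821 to 4229 with each of the 6 samples left out, and 2868 and 1009 when a log2 fold change over 1 was also required. Counts of genes whose 3D effect was more positive (3431) or more negative (2376) in WT than under the label Cxcl5-/- were 3150 to 3745 and 1675 to 2189 with a WT sample left out, 1359 and 4585 by library totals, and 2115 for the first with no filter on low counts. Deviations of same-numbered 2D and 3D samples had correlations of 0.015, 0.088 and -0.031, within the range of differently numbered ones (-0.102 to 0.0913). These few values cannot show whether same-numbered samples were handled together. A fit with a replicate block gave 4755 genes higher and 4787 lower. Of 752 list medians under alternatives 609 stayed within the spread between samples and 140 moved. The other 3 changed sign from a reported median beyond that spread. They were those of cadherins (-0.026, only genes with a stray signal under 10%), of ephrins and Eph receptors (-0.033, library totals) and of focal adhesion genes (-0.11, library totals). A reported median within that spread, such as that of the endoplasmic reticulum chaperones, was not counted as changing sign. Of 3245 values of named genes 3199 kept their direction and side of the threshold, 25 lost the call, 15 gained it and 6 changed sign. The last were *Fasn* (-0.15 by library totals, -0.031 without 3D WT replicate 1 and up to 0.21 without 3D WT replicate 2), *Itgb1* (-0.066 by library totals) and *Thbs1* (-0.21 by library totals, -0.015 without 2D WT replicate 1, -0.014 without 3D WT replicate 3 and up to 0.099 without 3D WT replicate 2), none of which passed the threshold in the reported analysis. DESeq2's Wald test gave 5328 genes higher and 4249 lower. For genes whose expected stray signal comes near their level, a rise in expression and a gain of stray signal cannot be told apart here. No limit of detection was computed.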
